A study of Mus musculus with 6 samples.

Results

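The vascular basement membrane genes are 10 genes that encode the main structural proteins of the sheet beneath blood vessel endothelium. They are the collagen chains Col4a1, Col4a2 and Col18a1, the laminin chains Lama4, Lama5, Lamb1 and Lamc1, the nidogens Nid1 and Nid2, and Hspg2, which encodes perlecan. The genes were chosen by name, and all 10 were found among the 24421 gene symbols counted. RNA sequencing was done on cells that flow cytometry had sorted as endothelium from subcutaneous B16F0 tumours, a transplantable mouse melanoma, in C57BL/6 mice. Tumours grew for 17 days. One group of 3 libraries came from mice given 15C4, an antibody that blocks the secreted glycoprotein LRG1, and the other group of 3 came from mice given control IgG. Both were injected at 50 mg/kg every 3 days, and all 6 libraries share the tumour line and the mouse strain. The labels give no sex or age, and do not say whether a library is 1 animal or a pool, so p-values measure the spread between libraries, which may be partly technical.

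Endothelial cells and the pericytes around them secrete the basement membrane, and both are anchored to it. Laminins, each a trimer of an alpha, a beta and a gamma chain, assemble first on the cell surface. Type IV collagen forms a second, covalently linked network, and nidogens and perlecan tie the networks together. In vessels the alpha4 and alpha5 laminin chains are the main alpha chains, each combined with a beta and the gamma1 chain. Collagen XVIII and perlecan carry heparan sulfate chains, and the C-terminal fragment of collagen XVIII is endostatin, an inhibitor of angiogenesis. Growing tumour vessels are known for a loosely attached basement membrane.

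Col4a1 and Col4a2 lie head to head on chromosome 8 (GRCm38), Col4a1 on the minus strand at 11198423 to 11312826 and Col4a2 on the plus strand at 11312805 to 11449287. Their annotated first exons share 22 bases, chr8:11312805-11312826, so reads from those bases cannot be assigned to either gene without strand. These bases are shown first because they are the start of both genes. They come from the promoter table of RefSeq (GRCm38.p6), read 5′ to 3′ on each gene's own strand, with the GC box (GGGCGG, or CCGCCC on the other strand) in capitals.
Col4a2 start: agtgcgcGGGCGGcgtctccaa
Col4a1 start: ttggagacgCCGCCCgcgcact
The stretches upstream of Nid1 (chr13:13437401-13437550, plus strand) and Lama5 (chr2:180225860-180226009, minus strand) follow. With all 6 libraries, Nid1 had the largest and Lama5 the smallest fitted log2 fold change of the members, 15C4 over IgG. Without IgG 3 this order did not hold, and Lama5 (0.498) and Nid1 (0.497) were the largest. Each stretch holds 150 bases just outside the annotated exons.
Nid1 upstream: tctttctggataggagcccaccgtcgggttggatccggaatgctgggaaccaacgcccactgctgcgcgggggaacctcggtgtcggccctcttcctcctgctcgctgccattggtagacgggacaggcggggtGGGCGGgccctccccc
Lama5 upstream: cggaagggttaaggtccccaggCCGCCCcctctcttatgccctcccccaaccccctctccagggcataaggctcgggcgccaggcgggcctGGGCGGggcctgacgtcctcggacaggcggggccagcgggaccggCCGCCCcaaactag
The Nid1 stretch holds 1 GC box and the Lama5 stretch 3.

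RefSeq promoter windows of 300 bases (250 before the start and 50 from it on) were matched for 7 of the 10 members, with 8 windows because Col18a1 has 2. Their GC content was 59.7% to 74.0%, against a median of 52.7% over 32817 windows of the same length. The GC box, searched on both strands, was in 7 of the 8 windows and in 35.6% of all windows. The windows of Col4a1 and Col4a2 overlap, so these 2 are not independent. The 1 GC box of the Col4a1 window lies in the 22 shared bases and so is in both. CCAAT was in 5 of 8 and in 37.4% of all. TATAAA (13.6% of all windows), the AP-1 letters TGANTCA (7.81%), the E-box CACGTG (7.15%) and the palindromic SMAD letters GTCTAGAC (0.213%) were in 0 of the 8. The 1 member window without a GC box was that of the downstream start of Col18a1, chr10:77113656-77113955. The gene counts do not separate its 2 starts.

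The libraries held 5175600 to 19572202 counts. Levels are CPM, the usual scaling of a count to its library total. Melanocyte markers (13 genes) all had counts in every library and summed to between 24057 and 29186 CPM, with Dct and Tyrp1, enzymes of melanin synthesis, as the highest. Pan-endothelial markers (22 genes, among them Cdh5, Pecam1 and Kdr) summed to 1603 to 3396 CPM in 5 libraries and to 246 CPM in IgG 3, where Erg had 0 counts. The melanocyte sum was 7.22 to 17.8 times the pan-endothelial sum in 5 libraries and 97.7 times in IgG 3. These sums over chosen markers do not measure the share of RNA from either cell type, and the part of melanocyte RNA in the members' levels was not tested. IgG 3 therefore stands apart in its endothelial transcripts, and the members' and lists' fitted values are given with and without it. Fewer endothelial cells and less RNA per endothelial cell cannot be told apart in such libraries. Pericyte and smooth muscle markers (12 genes) had sums of 62.9 to 84.3 CPM with 15C4 and of 10.5 to 103 CPM with IgG. Higd1b had 0 counts throughout, and 4 to 8 of the 12 were at 0 in a library. Fibroblast markers (10 genes) reached 155 CPM in 15C4 3, of which Lum was 151 CPM, and 104 CPM in IgG 1, and were 0.119 to 7.78 CPM in the other 4 libraries. T and NK cell markers (12 genes) reached 595 CPM in IgG 1 and 220 CPM in 15C4 1, of which Ccl5 was 214 CPM. They summed to 5.21 to 21.7 CPM in the others. Macrophage and monocyte markers (13 genes) reached 203 CPM in IgG 1 and 76.5 CPM in 15C4 2, and were 0.469 to 29.5 CPM in the others. Lymphatic markers (7 genes) reached 1168 CPM in IgG 2.

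All 10 members were detected in every library. Per kilobase of exon, which allows genes to be compared, Col4a1 had the highest level, with a median over the 6 libraries of 101 CPM per kb (24.6 to 156). Col4a2 followed at 58.7 (8.96 to 82.4) and Nid1 at 51.3 CPM per kb (5.23 to 81.3). Lamb1 was at 34.4, Lama4 at 27.6, Lamc1 at 14.6, Col18a1 at 13.1, Nid2 at 10.1, Hspg2 at 4.44 and Lama5 at 2.24 CPM per kb. Some neighbours in this order kept it in all 6 libraries, namely Col4a1 above Col4a2, Nid1 above Lamb1, Lama4 above Lamc1 and Nid2 above Hspg2. Hspg2 was above Lama5 in 5 of 6. Col4a2 and Nid1 (4 of 6), Lamb1 and Lama4 (3 of 6), Lamc1 and Col18a1 (4 of 6) and Col18a1 and Nid2 (3 of 6) changed places between libraries and are not ordered beyond their spread.

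**Figure D1:**
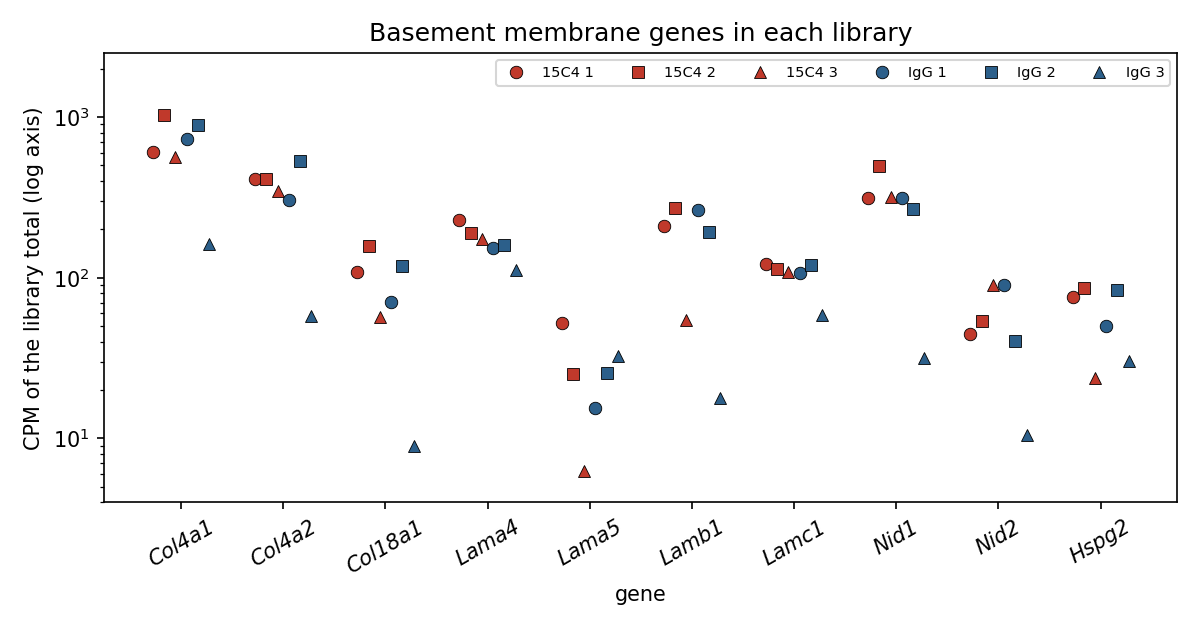
CPM of the library total on a log axis for each of the 10 genes; each point is 1 library, red for 15C4 and blue for IgG, with shapes for replicates 1, 2 and 3. IgG 3 (blue triangle) is the lowest library for 8 of the 10 genes, while Lama5 and Hspg2 were lowest in 15C4 3.

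In the mix of these transcripts IgG 3 differed from the other libraries for several genes. As a share of the summed level per kb, Col4a1 took 27.6% to 36.4% in all 6 libraries. Nid1 took 11.9% to 19.2% in 5 libraries and 6.82% in IgG 3, and Lama4 took 7.15% to 11.4% in 5 libraries and 24.2% in IgG 3. Lamc1 took 10.1% in IgG 3 and 3.43% to 5.18% in the others. Lama5 took 3.75% there against 0.201% to 1.38%. The share of Lamb1 was low in both 15C4 3 (3.44%) and IgG 3 (3.98%), against 8.86% to 13.8% in the other 4 libraries.

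**Figure D2:**
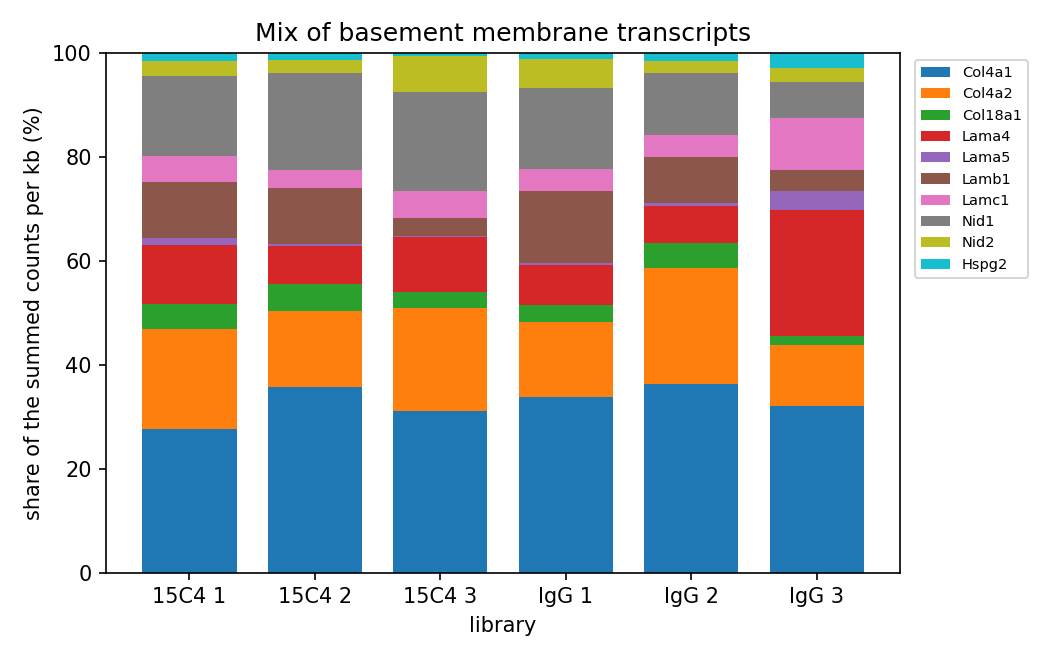
Stacked bars give each gene's share of the summed counts per kilobase of the 10 genes, in percent, for each of the 6 libraries. Col4a1 takes 27.6% to 36.4% in every library, and the Lama4 segment is widest in IgG 3 (24.2%).

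The comparison of 15C4 with IgG asks how blocking LRG1 alters the transcripts of tumour endothelium. None of the 10 members passed edgeR's quasi-likelihood test (0 of 10; smallest unadjusted p = 0.117, Benjamini-Hochberg adjusted p = 1.00 for each). Of the 11144 genes tested, 0 passed (0%), and 288 had an unadjusted p under 0.05, none of them a member. DESeq2, run on all genes with its own filter, called 72 genes (0.606% of those with an adjusted p). Run on the genes tested with edgeR, an alternative added after seeing the data, it called 26 (0.252%), and limma-voom called 0, in each case with 0 members. Without adjustment for multiple tests, 729 of 15519 genes and 0 members passed 0.05 in DESeq2 with its own filter. In limma-voom 461 of 11144 genes did, with Nid1 the 1 member. All 10 fitted log2 fold changes (15C4 over IgG) were above 0, between 0.20 and 0.99 with a median of 0.45, where 50.7% of all genes tested were above 0 and their median was 0.01. Without IgG 3, 7 of 10 were above 0 and the median was 0.12, against 51.6% and 0.03 for all genes. The pan-endothelial markers, which summed to 246 CPM in IgG 3, had 18 of 22 fitted above 0 with a median of 0.34. Without IgG 3 they had 7 of 22 above 0 with a median of -0.11, and their median was -0.39 without 15C4 2 and 0.91 without IgG 2. Their part in the members' values was not tested.

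**Figure D3:**
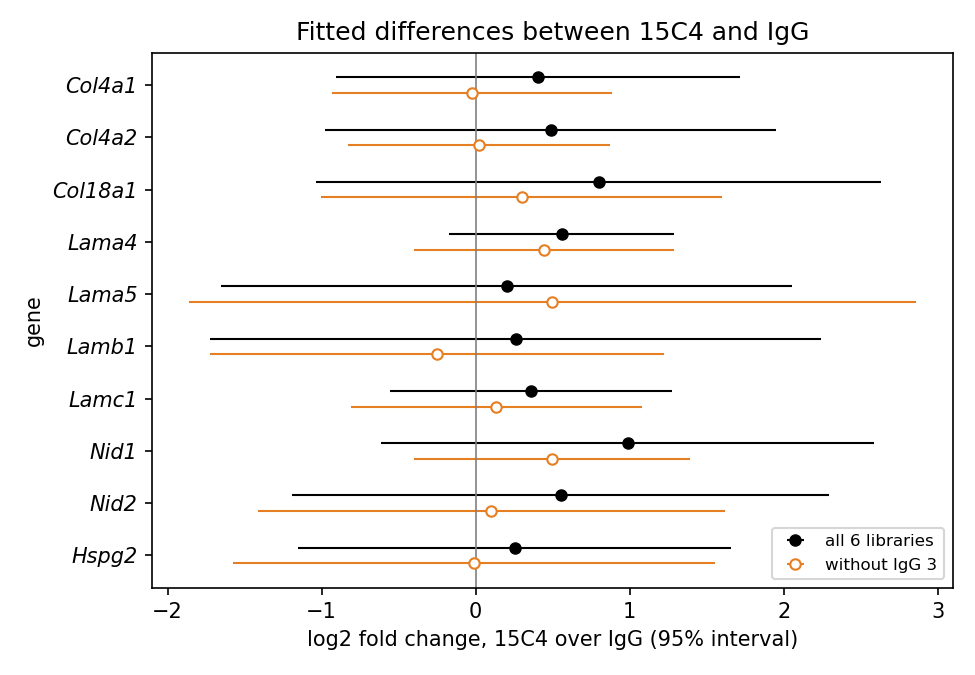
Fitted log2 fold change, 15C4 over IgG, with its 95% interval for each gene from edgeR, with all 6 libraries (black) and without IgG 3 (open orange). All intervals include 0, and without IgG 3 the estimates for Col4a1 (-0.02), Lamb1 (-0.25) and Hspg2 (-0.01) lie below 0.

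Col4a1 and Col4a2 encode the chains of the type IV collagen found in nearly all basement membranes. Col4a1 was at 605, 1031 and 561 CPM in 15C4 1, 2 and 3 and at 731, 889.6 and 163 CPM in IgG 1, 2 and 3. The groups overlapped, with IgG 1 and IgG 2 above 2 of the 15C4 libraries and IgG 3 below all others. The means were 732 ± 259 against 595 ± 382 CPM (SD, n = 3 each). The fitted log2 fold change was 0.40 (SE 0.57, 95% interval -0.91 to 1.71). Col4a2 was at 409.6, 412 and 348 CPM in 15C4 and 305, 531 and 57.8 CPM in IgG. IgG 2 was the highest library and IgG 3 the lowest, so the 15C4 libraries lay inside the IgG range. The log2 fold change was 0.49 (SE 0.64, interval -0.98 to 1.95). Without IgG 3 the values were -0.02 for Col4a1 (interval -0.93 to 0.89) and 0.02 for Col4a2 (-0.83 to 0.87). Without IgG 2 they were 0.80 and 1.18, and without 15C4 2 Col4a1 was at 0.08.

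Col18a1 (chromosome 10, 77052178 to 77166548), the collagen that carries endostatin, had the widest range of the members. It was at 108, 157 and 56.8 CPM in 15C4 and 70.3, 118 and 8.998 CPM in IgG, a span of 17.4-fold over all libraries and 2.77-fold without IgG 3. The 105 counts in IgG 3 give an exact (Clopper-Pearson) 95% interval of 7.36 to 10.9 CPM, which covers counting error only, as do all such intervals here, because amplified reads that carry no molecular identifier do not each stand for 1 molecule. The groups overlapped, and the log2 fold change was 0.80 (SE 0.80, interval -1.04 to 2.63). It was 0.30 without IgG 3, 0.41 without 15C4 2 and 1.51 without IgG 2.

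The laminin alpha chains went different ways across the libraries. Lama4 (chromosome 10, 38965515 to 39110188), the alpha4 chain typical of endothelium, was at 228, 189 and 175 CPM in 15C4 and 154, 159.7 and 112 CPM in IgG. All 15C4 libraries lay above all IgG libraries. Of the members 2, Lama4 and Nid1, had groups that did not overlap, both higher in 15C4, where 9.52% of tested genes did not overlap in either direction and 2.88% were higher in 15C4. The nearest libraries, 15C4 3 and IgG 2, had counting intervals that overlapped (164 to 185 and 152 to 168 CPM). Lama4 was at 197 ± 27.5 against 142 ± 25.7 CPM (SD, n = 3 each). The fitted log2 fold change was 0.56 (SE 0.32, interval -0.17 to 1.29; edgeR unadjusted p = 0.117). It was 0.44 without IgG 3 (edgeR unadjusted p = 0.255), and between 0.44 and 0.64 with each library left out in turn. Lama5 (chromosome 2, 180176373 to 180225859), the alpha5 chain, was at 52.1, 25.3 and 6.26 CPM in 15C4 and 15.5, 25.7 and 32.7 CPM in IgG. The highest and the lowest library were both 15C4 libraries, and IgG 3 was the highest of its group. The 40 counts of Lama5 in 15C4 3 give an interval of 4.47 to 8.52 CPM. Its log2 fold change was 0.20 (SE 0.81, interval -1.65 to 2.05), with -0.53 without 15C4 1, -0.04 without IgG 1, 0.50 without IgG 3 and 0.66 without 15C4 3.

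Lamb1 and Lamc1 encode the beta1 and gamma1 chains, the partners of alpha4 and alpha5. Lamb1 (chromosome 12, 31265234 to 31329644) was at 210.2, 273 and 54.7 CPM in 15C4 and 263, 191 and 17.8 CPM in IgG. Library 3 of each group was low and the other 4 libraries lay close together, so the groups overlapped. The log2 fold change of 0.26 (SE 0.87, interval -1.72 to 2.24) became -0.25 without IgG 3, -0.20 without 15C4 2, 0.41 without IgG 2, 0.69 without 15C4 3 and 0.87 without IgG 1. Lamc1 (chromosome 1, 153218922 to 153332786) was at 122, 114 and 108 CPM in 15C4 and 106, 121 and 59.0 CPM in IgG. Over the 5 libraries other than IgG 3 its span of 1.15-fold was the smallest of the members, while over all 6 libraries that of Lama4 was smaller (2.03-fold against 2.07-fold). Its log2 fold change was 0.36 (SE 0.40, interval -0.56 to 1.28), with 0.13 without IgG 3 and 0.55 without IgG 2.

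Nidogens link the laminin network to type IV collagen. Nid1 (chromosome 13, 13437551 to 13512269) was at 313, 495 and 319 CPM in 15C4 and 312, 268 and 31.9 CPM in IgG. The groups did not overlap, but 15C4 1 and IgG 1 were alike within counting error (intervals 301 to 325 and 297 to 328 CPM). After TMM scaling 15C4 1 (293 CPM) lay below IgG 1 (305 CPM), so that Lama4 was the 1 member whose groups did not overlap on that scale, where 3.58% of tested genes were higher in 15C4 in this way. Nid1 was at 376 ± 103 against 204 ± 151 CPM (SD, n = 3 each) and had the largest fitted difference of the members, 0.99 on the log2 scale (SE 0.70, interval -0.61 to 2.58; edgeR unadjusted p = 0.195). Without IgG 3 it was 0.497 (interval -0.40 to 1.39) and no longer the largest, with Lama5 at 0.498. Without IgG 1 Nid1 was at 1.45.

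Nid2 (chromosome 14, 19751265 to 19811787) was at 44.8, 53.9 and 90.6 CPM in 15C4 and 89.7, 40.4 and 10.5 CPM in IgG. 15C4 3 and IgG 1 were high and alike, and these were also the 2 libraries with fibroblast marker sums above 100 CPM. In 15C4 3 that sum of 155 CPM was almost all Lum (151 CPM). Col1a1, Col1a2 and Col3a1 had 1, 3 and 5 counts there, against 63, 126 and 132 in IgG 1. The part of fibroblast RNA in Nid2 was not tested. Its log2 fold change was 0.55 (SE 0.76, interval -1.19 to 2.29), with 0.10 without IgG 3, 0.13 without 15C4 3 and 1.45 without IgG 1. Of the 4876 exon bases of Nid2, 437 are shared with Rtraf on the opposite strand, and the strand setting of the counts is not given in the sources used here, so Nid2 is uncertain to that extent. Antisense genes likewise share 143 exon bases with Nid1 (Gm48682) and 43 with Col4a2 (Gm15419). Rtraf, Gm48682 and Gm15419 are not among the gene symbols counted. Hspg2 (chromosome 4, 137468769 to 137570630), the heparan sulfate proteoglycan perlecan, was at 76.3, 86.7 and 23.9 CPM in 15C4 and 50.0, 84.0 and 30.5 CPM in IgG. The lowest library was 15C4 3, and the groups overlapped. Its log2 fold change was 0.25 (SE 0.61, interval -1.15 to 1.66), with -0.01 without IgG 3, -0.08 without 15C4 2, 0.15 without 15C4 1, 0.63 without 15C4 3 and 0.68 without IgG 2.

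The authors' deposited table gives log2 fold changes of IgG over 15C4 below 0 for all 10 members, from -0.233 for Lama5 to -1.036 for Nid1. Its smallest adjusted p among them is 0.799, for Nid1.

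IgG 3 was lower than all 5 other libraries for 8 of the 10 members, against 14.4% of the 9421 genes with a median of at least 5 CPM in those 5 and 16 of 21 such pan-endothelial genes. The members kept unequal parts of their level there. Against the median of the other 5 libraries, IgG 3 held 8.34% for Col18a1, 8.48% for Lamb1, 10.2% for Nid1, 14.1% for Col4a2, 19.6% for Nid2 and 22.3% for Col4a1. It held 39.98% for Hspg2, 51.8% for Lamc1, 64.4% for Lama4 and 129% for Lama5. The pan-endothelial genes had a median of 10.2% (0% to 69.0%), while melanocyte genes had a median of 94.7% and genes of collagen processing one of 110.04%. This concerns 1 library, so it has no replicate check.

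**Figure D4:**
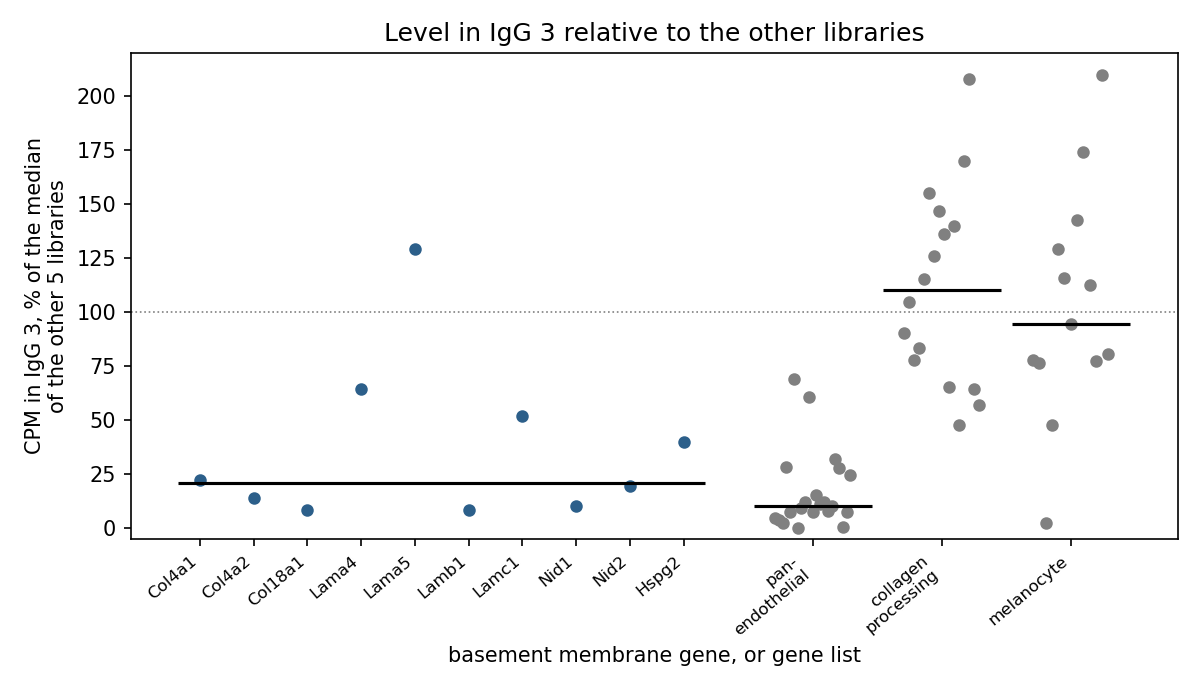
CPM in IgG 3 as a percentage of the median of the other 5 libraries, for each of the 10 genes (blue) and for genes of 3 lists with a median of at least 5 CPM (grey); black lines are list medians and the dotted line is 100%. Lama5 (129%) lies above the range of the pan-endothelial genes (0% to 69.0%, median 10.2%). The other members lie within it, with Lama4 (64.4%), Lamc1 (51.8%) and Hspg2 (39.98%) the highest of them.

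The members were also set against the pan-endothelial sum of the same library. Cdh5 was the largest part of that sum in every library, and an uneven one. It was 970 of 1603 CPM in 15C4 3 and 46.3 of 246 CPM in IgG 3. Col18a1 amounted to 3.52% to 6.63% of the pan-endothelial sum in the 5 other libraries and 3.65% in IgG 3. Nid1 (9.50% to 19.9%; 12.9% in IgG 3), Nid2 (1.43% to 5.65%; 4.28%), Lamb1 (3.42% to 13.1%; 7.24%) and Col4a2 (12.1% to 25.2%; 23.5%) were likewise inside the range of the others. The other 5 members lay above it in IgG 3. Col4a1 was at 66.2% there against 30.3% to 37.2%, Lama4 at 45.7% against 5.57% to 14.0%, Lamc1 at 24.0% against 3.36% to 7.51%, Lama5 at 13.3% against 0.390% to 3.21% and Hspg2 at 12.4% against 1.49% to 4.69%. With this sum in place of the library total as the scale in edgeR, 0 members passed and 3 of 10 were above 0 (median -0.27), where all genes tested had a median of -1.68.

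Ratios between genes within a library do not depend on library scaling, and 4 pairs were compared. Of these, Lama4 and Lama5 encode alternative alpha chains, and Nid1 and Nid2 are both nidogens, so these are not assembly partners. The ratio of Col4a1 to Col4a2, per kb, was 1.44, 2.44 and 1.57 in 15C4 and 2.34, 1.63 and 2.75 in IgG. Col4a1 exceeded Col4a2 in every library, by a factor that varied 1.91-fold. Lama4 exceeded Lama5 by 8.23, 14.1 and 52.6 in 15C4 and by 18.7, 11.7 and 6.47 in IgG. Its highest ratio was in 15C4 3, where Lama5 had 40 counts, and its lowest in IgG 3. Nid1 exceeded Nid2 by 5.60, 7.35 and 2.82 in 15C4 and by 2.79, 5.30 and 2.42 in IgG. Lamb1 over Lamc1 was 2.25, 3.13 and 0.663 in 15C4 and 3.23, 2.07 and 0.394 in IgG, so that Lamc1 was the higher of the pair only in library 3 of each group.

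None of the 4 ratios differed between the groups beyond the spread. The difference in the log2 ratio, 15C4 minus IgG, was -0.31 for Col4a1 over Col4a2 (two-sided exact permutation p = 0.4), 0.27 for Lamb1 over Lamc1 (exact permutation p = 0.7), 0.70 for Lama4 over Lama5 (exact permutation p = 0.6) and 0.57 for Nid1 over Nid2 (exact permutation p = 0.2). The Benjamini-Hochberg value over the 4 tests was 0.7 for each, and 3 libraries against 3 cannot go below an exact p of 0.1. The difference for Lamb1 over Lamc1 was -0.63 without IgG 3 and -0.18 without 15C4 2, and that for Lama4 over Lama5 was -0.06 without 15C4 3.

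**Figure D5:**
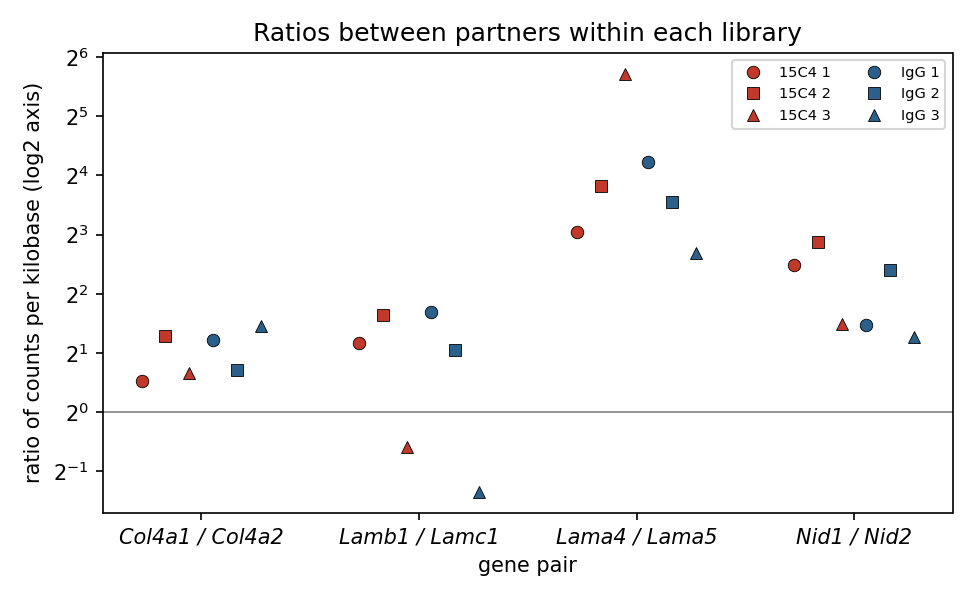
Ratio of counts per kilobase between the genes of each pair, on a log2 axis; each point is 1 library, red for 15C4 and blue for IgG, with shapes for replicates 1, 2 and 3. Only Lamb1 over Lamc1 falls below 1, in 15C4 3 (0.663) and IgG 3 (0.394), and the groups overlap for all 4 pairs.

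Other chains of the same families differed in abundance. Col15a1, the collagen closest in kind to Col18a1, was at 129.5, 107.8 and 29.1 CPM in 15C4 and 126, 163 and 12.3 CPM in IgG, with overlapping groups and IgG 3 the lowest library. Lamb2, the beta2 laminin chain, had 48 to 291 counts in every library, with means of 9.97 ± 6.54 CPM (15C4) against 19.9 ± 9.23 CPM (IgG; SD, n = 3 each). Lamb3 had 0 counts in all 6 libraries, where a count of 0 allows up to 0.153 to 0.580 CPM. Col4a3 had 164 counts and Col4a6 104 counts in 15C4 1, and together 1 count in the other 5 libraries. Lama1 had 20 counts in 15C4 3 and 2 in IgG 1 as its only counts, and Lama2 had at most 8 counts in any library. Col4a5, an X-linked type IV collagen chain, was detected in every library, at 23.9, 56.4 and 256 CPM in 15C4 and 21.6, 34.4 and 23.6 CPM in IgG. The groups overlapped, and 15C4 3 was far above the others.

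Of 22 other basement membrane components, 12 were tested and 0 passed in edgeR (6 above and 6 below 0, median log2 fold change -0.01). Their median was -0.08 without IgG 3, and between -0.19 (without 15C4 2) and 0.38 (without IgG 2) with each library left out. Hmcn1, which encodes the large matrix protein hemicentin, was at 88.1, 55.5 and 203 CPM in 15C4 and 25.3, 24.4 and 19.5 CPM in IgG. All its 15C4 libraries were above all IgG libraries. The log2 fold change was 2.46 (SE 0.61; edgeR unadjusted p = 0.00334, Benjamini-Hochberg adjusted p = 1.00), with 2.38 without IgG 3 and 1.66 without 15C4 3. DESeq2 with its own filter called Hmcn1 (adjusted p = 0.0244) and Smoc1 (adjusted p = 8.835e-05). Smoc1 had 58 counts in 15C4 3 and 0 in the other 5 libraries, and was not among the genes tested with edgeR. On those genes DESeq2 called Hmcn1 (adjusted p = 0.0385). Col4a5 had a log2 fold change of 2.25 (SE 0.87; edgeR unadjusted p = 0.0306), with 2.21 without IgG 3 and 0.67 without 15C4 3. Sparc, a collagen-binding glycoprotein, was the most abundant of the list, at 1089 ± 456 against 1075 ± 608 CPM (SD, n = 3 each).

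Type IV collagen needs hydroxylases and chaperones in the endoplasmic reticulum before secretion. Of 18 such genes counted, 16 were tested, 8 were above and 8 below 0 (median -0.05), and 0 passed. The median was 0.04 without IgG 3 and -0.20 without 15C4 3. P4ha2, a prolyl hydroxylase subunit, was at 55.1, 31.8 and 53.7 CPM in 15C4 and 89.1, 163 and 80.8 CPM in IgG, with all IgG libraries above, as in 6.64% of tested genes (log2 fold change -1.15, SE 0.48; edgeR unadjusted p = 0.0404). Plod2, a lysyl hydroxylase, was at 305, 294 and 401 CPM in 15C4 and 522, 625 and 562 CPM in IgG (-0.67, SE 0.30; edgeR unadjusted p = 0.0577). Its IgG libraries were also all above the 15C4 libraries. Without IgG 3, P4ha2 was at -1.30 and Plod2 at -0.64.

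Of the basement membrane receptors 13 of 15 were tested, with 5 above and 8 below 0 (median -0.30; -0.29 without IgG 3, and -0.11 without 15C4 2) and 0 passing. Dag1, which encodes dystroglycan, a laminin receptor, was at 189 ± 109.8 against 318 ± 90.3 CPM, and Itgb1, the beta1 integrin subunit, at 718 ± 51.5 against 1016 ± 187 CPM (SD, n = 3 each). Their log2 fold changes were -0.70 (SE 0.42, edgeR unadjusted p = 0.133) and -0.41 (SE 0.28, edgeR unadjusted p = 0.174). The groups overlapped for Dag1, while for Itgb1 all IgG libraries were above, as in 6.64% of tested genes. Matrix proteases and inhibitors had 14 of 16 tested, 5 above and 9 below 0 (median -0.14) and 0 passing. Their median was -0.26 without IgG 3, -0.35 without 15C4 2 and 0.26 without IgG 2. Timp1, an inhibitor of metalloproteinases, was at 2.45 ± 2.53 against 14.0 ± 9.04 CPM. Its counts were low, with 3 in 15C4 1 and 11 in 15C4 3. The groups overlapped, with 15C4 2 (5.26 CPM) above IgG 2 (3.63 CPM). The log2 fold change was -2.38 (SE 1.34, edgeR unadjusted p = 0.110), and -2.13 without IgG 3. Heparan sulfate synthesis genes had 10 of 13 tested, 3 above and 7 below 0 (median -0.45) and 0 passing. Their median was -0.69 without IgG 3 and -0.10 without IgG 1. Extl3, a glycosyltransferase that starts the chains, was at 30.2 ± 14.1 against 16.3 ± 3.78 CPM, and Sulf2, an extracellular sulfatase, at 31.4 ± 24.0 against 57.4 ± 17.8 CPM (SD, n = 3 each). The groups overlapped for both. Their log2 fold changes were 0.96 (SE 0.69, edgeR unadjusted p = 0.198) and -0.84 (SE 0.63, edgeR unadjusted p = 0.218). With each library left out, Extl3 was between 0.72 and 1.29 and Sulf2 between -1.56 and -0.56.

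Genes with the most similar pattern over the 6 libraries were looked for among 6697 tested genes other than predicted ones, by Pearson's r of TMM-scaled log2 CPM. The closest to Col4a1 were Arhgap29 (r = 0.998), Robo4, an endothelial guidance receptor (0.992), Ptprb, the endothelial phosphatase VE-PTP (0.991), Tcf4 (0.991) and App (0.989). In each of these 5 genes IgG 3 was the lowest library, for example 27.3 CPM against 206 to 423 CPM for Arhgap29. The closest to Hspg2 were Uhrf1bp1 (0.989), the TNF receptor gene Tnfrsf1a (0.983), Pydc4 (0.9755), Ldb2 (0.9751) and Hivep2 (0.972), of which all 5 were lowest in 15C4 3. The closest to Lama4 were Hey1, a Notch target (0.983), Trim12c (0.982), Zfp780b (0.978), the potassium channel subunit gene Kcne3 (0.971) and Limch1 (0.968). In all 5 every 15C4 library lay above every IgG library, and IgG 3 was the lowest. They were picked by likeness to Lama4, which has the same split, so this adds no separate result. Among the members, Col4a1 was closest to Col18a1 (0.970), Nid1 (0.959) and Col4a2 (0.950) and least like Lama5 (-0.230). The first of these ranked 21, 39 and 53 among the 6697 genes, so many genes that are not members were closer to Col4a1. All these correlations are descriptions over 6 libraries in which all genes share each library's depth and cell mix.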

How the data were processed

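Each of the 6 libraries had a table of gene symbols with 1 raw count each, as the authors deposited it. The submitters' processing notes name STAR 2.5b, featureCounts, fastp and DESeq2, and the builds mm10 and mm9 without roles. Annotation and strandedness were not given in the sources used here. Complementary DNA was amplified by PCR before Nextera XT library preparation, per the labels' protocols. The authors' deposited table also gives a log2 fold change (IgG over 15C4) with a p-value and an adjusted p-value per gene, used only where named.

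After TMM scaling, edgeR 4.0.16 (R 4.3.3) was used for quasi-likelihood tests of the counts, with treatment as the only term. Genes were kept by filterByExpr (minimum count 10, total 15), p-values were Benjamini-Hochberg adjusted over all genes, and the threshold was 0.05. The SE is the absolute log2 fold change over the square root of F, and 95% intervals use the test's degrees of freedom. CPM are of the library total without TMM factors unless stated. Levels per kb divide by the exon union of protein-coding transcripts in GENCODE M21 (GRCm38), the source of gene coordinates. Ratios within gene pairs added 0.5 counts for the test. Correlations were made over genes with a mean of at least 20 CPM, on log2 values with 2 as the prior count.

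The members, gene lists and tests were chosen with earlier results of these data known. The named genes are the members, the 2 genes of each related list with the smallest p (1 of these is not reported here), and the 5 genes most like Col4a1, Hspg2 and Lama4; other chains and list members named were chosen after their values were seen. Alternatives were DESeq2 1.42.0, limma-voom (limma 3.58.1), other scalings and filters, each library left out, and the replicate number as a block. Depth, between 5175600 and 19572202 counts per library, limits the lowest values most. No 2 libraries agreed within sampling noise.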

Additional observations from a re-analysis of the deposited data

How the results depend on the processing

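The count of members called was 0 in the main analysis and under all 15 alternatives. Over all genes, the count of 0 became 72 with DESeq2 and its own filter (15519 genes tested), 26 with DESeq2 on the genes tested with edgeR (added after seeing the data), 1 without a filter on low counts and 4 with pan-endothelial counts as the scale, and 2 and 1 of the other basement membrane components were called in the DESeq2 runs. Scaling by pan-endothelial counts turned the log2 fold change of Col4a1 to -0.39, Lama4 to -0.95, Lama5 to -1.78, Lamb1 to -0.16, Lamc1 to -0.93, Nid2 to -0.029 and Hspg2 to -1.03, relative to a median of all genes of -1.68. With limma-voom Lama5 was at -0.010 and the other 9 members were further from 0, among them Col4a1 at 0.81, Col4a2 at 1.07, Col18a1 at 1.62, Lamb1 at 1.08, Nid1 at 1.71, Nid2 at 1.13 and Hspg2 at 0.39 (members' median 0.94). With 1 library left out, values ranged from -0.023 to 0.80 for Col4a1, -0.53 to 0.66 for Lama5, -0.25 to 0.87 for Lamb1 and -0.084 to 0.68 for Hspg2, and the other 6 members stayed above 0 (Col4a2 0.02 to 1.18, Col18a1 0.30 to 1.51, Lama4 0.44 to 0.64, Lamc1 0.13 to 0.55, Nid1 0.50 to 1.45 and Nid2 0.10 to 1.45). The difference in log2 ratio ranged from -0.63 to 0.94 for Lamb1 over Lamc1 and from -0.059 to 1.27 for Lama4 over Lama5 when 1 library was left out. The cause was not tested.

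The labels number the libraries 1 to 3 in both groups. Deviations of same-numbered libraries from their group means correlated at -0.06, 0.04 and 0.09 over 9977 genes. Those of differently numbered libraries correlated at between -0.09 and 0.08, and not every library correlated best with its own number. Correlations of this kind cannot show whether same-numbered libraries shared a sort or a preparation, which was not tested. With the replicate number as a block, 0 genes and 0 members passed and Lama5 was at -0.089, while the other 9 members stayed above 0, with Col4a1 at 0.65, Col4a2 at 0.92, Col18a1 at 1.28, Lamb1 at 0.69 and Nid2 at 0.86. Sign flips within numbers leave the differences in the ratios of the gene pairs unchanged by construction. Their smallest exact sign-flip p was 0.25, the lowest that 3 pairs allow. Depth limits Lama5 in 15C4 3, with 40 counts, and Lama5 in IgG 1, with 80.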
